A study of Rattus norvegicus with 6 samples.

Results

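Complement component C3 and the complement genes around it were examined in GLI1-transformed and parental RK3E cells, an immortalised rat kidney epithelial line. Of 8 listed genes, 6 were represented by probe sets annotated to 1 symbol only: C3, C1r, C1s, Cfi, Serping1 and Cd55, which together had 7 probe sets among the 31042 of the array that are not controls. The other 2 were not measured under their own symbol. The 4 probe sets of Cfb also carry the symbol C2, so they were assigned to neither gene, and Cd59 appears under the symbol Cd59b, described beside the members below. C3 was chosen by its own signal, bright only in clone II. The other members were listed by gene family, with earlier results of these data known. Their p-values, and those of the further gene lists below, are therefore not for genes chosen independently of these data. The levels of C3, and those of every member in clone II set against the other arrays, are given as a description with no test.

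The study compared RK3E cells transformed by GLI1, the transcription factor that ends the Hedgehog pathway, with the parental line, on 6 Affymetrix rat arrays of 1 colour each. GLI1-transformed cells came from foci that formed after transfection with a GLI1 construct and were picked and kept as lines: 2 arrays are labelled clone II, 1 is labelled clone I and 1 has no clone named, and these last 2 are called the other GLI1 arrays here. The remaining 2 arrays carried parental RK3E cells, and DMEM with fetal bovine serum is the medium given for RK3E cells. The labels call the arrays biological replicates without saying how cultures were separated, so each p-value reflects array-to-array spread that may be technical. The 2 clone II arrays represent 1 picked line.

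Complement is a set of plasma and membrane proteins that tag and lyse cells. The classical arm starts when C1q engages the proteases C1r and C1s, the lectin arm starts with the Masp proteases, and the alternative arm runs through factor B. All arms converge on the cleavage of C3, whose fragment attaches covalently to nearby surfaces, and host cells are shielded by C1 inhibitor (the product of Serping1), factor I (Cfi), CD55, which dissociates the C3 convertases, and CD59, which blocks the final pore. The liver makes most plasma complement, and epithelial cells of the kidney and fibroblasts also transcribe several of these genes, C3 being a well-known target of inflammatory cytokines.

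The annotated promoters of C3 and Cd55 are shown because C3 was bright in clone II alone and Cd55 was dimmer on every GLI1 array than on the parental arrays. Each is the RefSeq window of 250 bases before to 50 after the gene's start in GRCr8, on the gene's own strand. Capitals mark matches to the searched motifs. The C3 window is chr9:2201290-2201589 on the minus strand and the Cd55 window is chr13:44438052-44438351 on the minus strand.
C3: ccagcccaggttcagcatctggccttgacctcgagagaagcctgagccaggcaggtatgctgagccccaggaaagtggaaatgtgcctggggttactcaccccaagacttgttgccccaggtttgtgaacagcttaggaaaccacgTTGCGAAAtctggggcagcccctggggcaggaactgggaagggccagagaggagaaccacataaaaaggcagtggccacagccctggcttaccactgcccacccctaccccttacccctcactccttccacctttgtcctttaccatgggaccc
Cd55: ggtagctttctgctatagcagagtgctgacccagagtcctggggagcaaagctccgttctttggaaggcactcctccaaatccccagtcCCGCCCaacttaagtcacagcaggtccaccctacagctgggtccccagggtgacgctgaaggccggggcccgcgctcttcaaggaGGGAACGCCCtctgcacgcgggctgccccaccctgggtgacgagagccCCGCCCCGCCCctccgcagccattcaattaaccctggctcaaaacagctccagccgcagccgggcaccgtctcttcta

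The letters TTGCNNAA, a C/EBP-like motif read on both strands, occurred 1 time in the C3 window, beginning 104 bases before the start. They were also present on the opposite strand of the C1r window, 83 bases before the start, and in 10.6% of 33469 rat promoter windows of the same length. The Cd55 window held GGGCGG, the SP1 box, at 3 places on the opposite strand, 161, 28 and 23 bases before the start, letters found in 33.1% of windows. An NF-kB-like motif, present in 5% of windows, matched the opposite strand of the Cd55 window 76 bases before the start, at the capitals between the SP1 boxes. An interferon response element-like motif, present in 3.92% of windows, matched none of the 4 members' windows that the table lists. The GLI consensus GACCACCCA, found in 0.385% of windows, was in none of those windows (C3, C1r, Cfi and Cd55) either, and neither were TATAAA, the TATA box (14.2%), and TTCNNNGAA, a STAT-like motif (8.87%). These matches describe the letters only.

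C3 transcript signal was high on both clone II arrays and low on every other array. The MAS5 signal, a background-adjusted intensity on a linear scale, was 25584 and 12276 on clone II replicates 1 and 2. It was 310.5 on the clone I array, 163 on the array with no clone named, and 127.5 and 223 on parental replicates 1 and 2, all 4 below the median signal of their own array (568 to 696 over the 6 arrays). On the log2 scale C3 averaged 14.11 ± 0.75 in clone II (SD, n = 2), 7.81 ± 0.66 in the other GLI1 arrays (SD, n = 2) and 7.40 ± 0.57 in parental cells (SD, n = 2). The other GLI1 arrays and parental cells lay 0.42 apart, less than either group's SD. The clone II mean was 91.0-fold that of the 4 remaining arrays (log2 difference 6.51), a difference that stayed between 6.28 and 6.69 with 32 added to every signal, median centring or quantile normalization. The GAPDH 3'/5' signal ratio, which rises as RNA degrades, was 7.52 on clone II replicate 1 and 1.39 on clone II replicate 2, against 1.45 and 2.09 on the other GLI1 arrays and 3.66 and 1.43 on parental replicates 1 and 2. Of the clone II arrays, C3 was brighter on replicate 1, where that ratio was the highest of the 6, than on replicate 2, where it was the lowest. The part of RNA quality in the C3 signal was not tested.

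**Figure D1:**
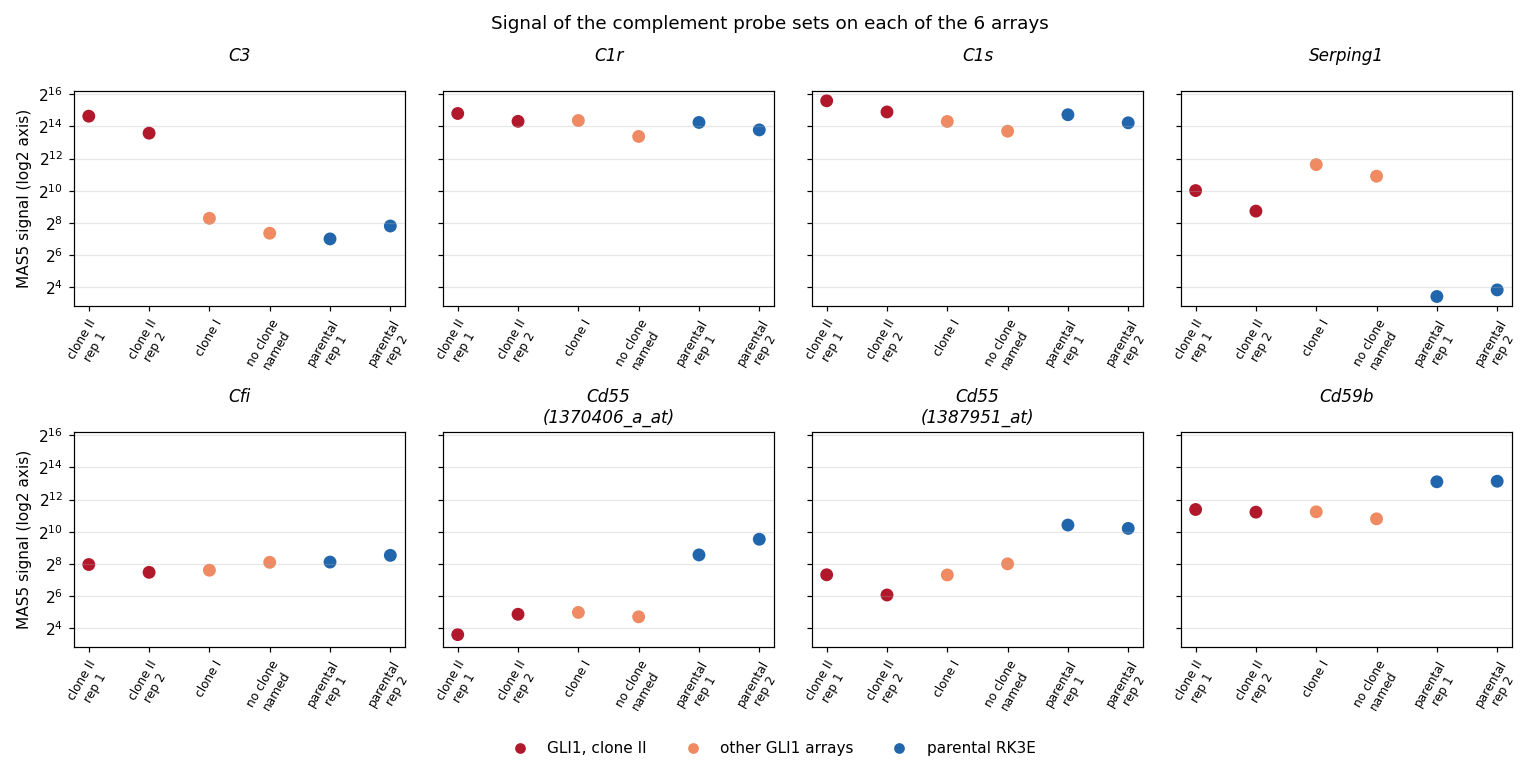
MAS5 signal (log2 axis) of the 7 member probe sets and of Cd59b on each array, with clone II in red, the other GLI1 arrays in orange and parental RK3E in blue; each point is 1 array, and the left of the Cd55 panels is its dimmer probe set. C3 stands at 25584 and 12276 on the clone II arrays and at 310.5 or less elsewhere, Serping1 is higher and both Cd55 probe sets and Cd59b are lower on all 4 GLI1 arrays than on the parental arrays.

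C1r and C1s, the proteases that open the classical arm, were bright in every culture. C1r signal was 28741 and 20492 in clone II, 21199 in clone I, 10658 on the array with no clone named, and 19517 and 14146 in parental cells. C1s signal was 49728 and 30711 in clone II, 20354 in clone I, 13369 on the array with no clone named, and 27243 and 19219 in parental cells. For both genes the array with no clone named was the lowest, and the GLI1 and parental ranges overlapped. In GRCr8 the genes neighbour each other on chromosome 4, with 0 annotated genes starting between them.

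Neither protease gene differed detectably between GLI1-transformed and parental cells. C1r averaged 14.22 ± 0.60 on the log2 scale in GLI1 cells (SD, n = 4) and 14.02 ± 0.33 in parental cells (SD, n = 2), a difference of 0.20 (SE 0.35, limma adjusted p = 0.755). C1s averaged 14.63 ± 0.81 in GLI1 cells (SD, n = 4) and 14.48 ± 0.36 in parental cells (SD, n = 2), a difference of 0.15 (SE 0.44, limma adjusted p = 0.863). Only C3, C1r and C1s had a mean log2 signal above the filter of 8.33 over the 6 arrays, so C1r and C1s were the 2 members tested there. Of these, 0 rose and 0 fell, with 0 at an unadjusted p under 0.05, where 13.1% of the 18625 tested probe sets were called (5.84% rose and 7.25% fell). In the other GLI1 arrays against the same parental arrays, where 12.4% of probe sets were called (5.57% rose and 6.83% fell), the log2 difference was -0.14 (SE 0.34, limma adjusted p = 0.826) for C1r and -0.47 (SE 0.31, limma adjusted p = 0.367) for C1s. Leaving out single arrays changed the sign of both differences in GLI1 cells and of that of C1r in the other GLI1 arrays, whereas C1s in the other GLI1 arrays stayed between -0.78 and -0.17.

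Within clone II, C1s lay above all 4 other arrays, at a mean 2.01-fold theirs, and C1r overlapped them, at a mean 1.54-fold theirs. Both clone II arrays were above the 4 others for 6.44% of all 31042 probe sets, and nothing is read from this contrast because the rule used it.

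Serping1, which encodes C1 inhibitor, the serpin that inactivates C1r and C1s, was higher on every GLI1 array than on the parental arrays. Unlike C3, it was lower in clone II than in the other GLI1 arrays. Its signal was 1029 and 424 in clone II, 3162 in clone I, 1915 on the array with no clone named, and 10.6 and 14.1 in parental cells. The groups did not overlap, and the parental values are far below the array medians. Averaged on the log2 scale it stood at 10.32 ± 1.25 in GLI1 cells (SD, n = 4) and 3.61 ± 0.29 in parental cells (SD, n = 2).

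The near-background parental signal kept Serping1 below the filter, with a mean of 8.08, and it was therefore tested only in the planned fit with no filter, across all 31042 probe sets, of which 7.25% were called and 3.1% rose. There it rose by 6.70 on the log2 scale (SE 0.78, limma adjusted p = 0.00125). With 32 added to each signal, which tempers ratios to dim values, the log2 rise was 4.89 (limma adjusted p = 0.00383). The rise was also called in the other GLI1 arrays alone (log2 7.65, SE 0.68, limma adjusted p = 0.000471), a comparison that shares its parental arrays and in which 7.04% of all probe sets were called, 3% as rises and 4.04% as falls. Leaving out any 1 array kept the rise past the threshold, with log2 values from 6.27 to 7.23. With the pair of arrays whose GAPDH ratios were highest both left out (replicate 1 of clone II and of parental cells), the difference was 6.60 and no longer passed (limma adjusted p = 0.0666). In these bulk cultures fewer cells expressing a gene and less RNA per cell cannot be told apart.

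Cfi, which encodes factor I, the protease that cuts C3b with the help of cofactors, was dim everywhere. Its signal was 248 and 177 in clone II, 194 in clone I, 273 on the array with no clone named, and 276 and 368 in parental cells. The 4 GLI1 values were below both parental ones, the highest by a narrow margin. The log2 difference between GLI1 and parental cells was -0.54 (SE 0.52) in the fit with no filter, and it did not pass (limma adjusted p = 0.633).

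Cd55 encodes the membrane protein, also called decay-accelerating factor, that breaks up C3 convertases on the cell's own surface. The brighter of its 2 probe sets read 159 and 66.5 in clone II, 158 in clone I and 255 on the array with no clone named, against 1364 and 1181 in parental cells. The dimmer read 12.0 and 28.9 in clone II, 31.3 in clone I and 25.9 on the array with no clone named, against 375 and 739 in parental cells. Both probe sets were lower on each GLI1 array than on either parental array.

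Both Cd55 probe sets lay below the filter, at means of 8.21 and 6.03, and fell in the fit with no filter, where 4.15% of probe sets fell. The log2 difference was -3.14 (SE 0.60, limma adjusted p = 0.0142) for the brighter set and -4.52 (SE 0.80, limma adjusted p = 0.0098) for the dimmer. In the other GLI1 arrays alone the differences were -2.66 (SE 0.66, limma adjusted p = 0.0448) and -4.21 (SE 0.96, limma adjusted p = 0.034). With 32 added to each signal the GLI1 differences were -2.86 and -3.32. The calls rested on having both parental arrays: without parental replicate 1 the adjusted p was 0.174 for the brighter set and 0.0788 for the dimmer, and without parental replicate 2 it was 0.119 for each. Leaving out that pair of high-ratio arrays gave 0.255 and 0.128, and with no intensity trend the brighter set also lost its call (0.0588). In the other GLI1 arrays alone, leaving out any 1 of their 2 arrays or of the parental arrays also ended both calls, at limma adjusted p-values from 0.0744 to 0.28. The direction held in each of these fits.

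Cd59b, the symbol under which the rat Cd59 gene now stands, encodes the anchored surface protein that stops assembly of the membrane attack complex. Its signal was 2670 and 2380 in clone II, 2417 in clone I, 1784 on the array with no clone named, and 8839 and 9048 in parental cells. The GLI1 arrays sat close together, well under both parental arrays. On the log2 scale it averaged 11.16 ± 0.25 in GLI1 cells (SD, n = 4) and 13.13 ± 0.02 in parental cells (SD, n = 2), and it fell by 1.97 (SE 0.22, limma adjusted p = 0.000831), among 7.25% of tested probe sets that fell. It fell by 2.11 in the other GLI1 arrays against parental cells (SE 0.23, limma adjusted p = 0.00136). With any 1 array left out Cd59b kept its call, at log2 differences from -2.04 to -1.85.

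Counting the 6 member probe sets other than C3, all 4 GLI1 arrays lay above both parental arrays for 1 (Serping1) and below both for 3 (both of Cd55, and Cfi), while 2 overlapped (C1r and C1s). Over all 31042 probe sets the corresponding shares were 14.4% and 16.6%.

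**Figure D2:**
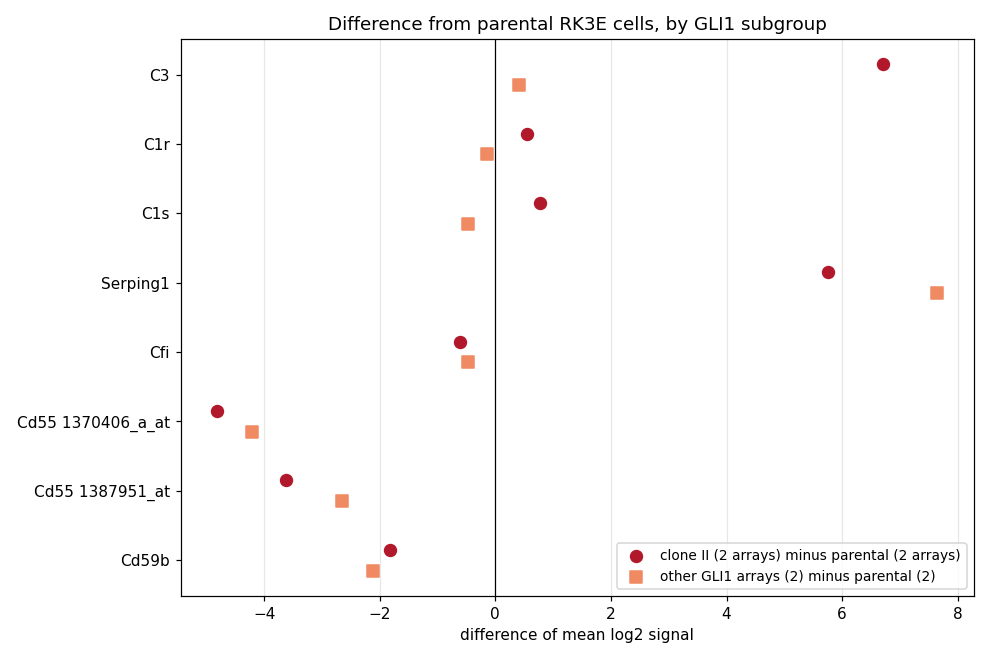
Difference of mean log2 signal from the 2 parental arrays, for the 2 clone II arrays (red circles) and the 2 other GLI1 arrays (orange squares), by probe set, with the dimmer Cd55 set above the brighter; both sets of points share the parental arrays. C3 is at 6.72 in clone II and 0.42 in the other GLI1 arrays, whereas Serping1, Cd55 and Cd59b lie on the same side of 0 in both.

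The rest of the pathway was taken from a list of 45 other complement genes, 35 of which had a single-symbol probe set. Of the 9 that passed the filter, 2 rose, 1 fell and 6 did not pass, with a median log2 difference of -0.02, beside a median of 0.005 over all tested probe sets, of which 5.84% rose and 7.25% fell. With no filter 2 rose, 2 fell and 31 did not pass, with a median of -0.08, where 3.1% of all probe sets rose and 4.15% fell. Signal reached 1000 on at least 1 array for 9 of the 35, and 26 stayed below it throughout.

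Clu, which encodes clusterin, a fluid-phase inhibitor of the terminal complex, rose. Its signal was 29405 and 40198 in clone II, 39471 in clone I, 29159 on the array with no clone named, and 12673 and 17573 in parental cells (log2 difference 1.19, SE 0.21, limma adjusted p = 0.00806). Every GLI1 array was above both parental arrays for this probe set, and the gene's other, dimmer probe set did not pass (0.58, limma adjusted p = 0.39). C1qbp, whose mainly mitochondrial product was first described as a receptor for C1q heads, had signals of 44521 and 50534 in clone II, 53613 in clone I, 43315 on the array with no clone named, and 22024 and 28830 in parental cells. It rose by 0.92 (SE 0.17, limma adjusted p = 0.0102).

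Masp1, which encodes a protease of the lectin arm, fell. The brightest of its 3 probe sets read 3434 and 4600.5 in clone II, 4999 in clone I, 3664 on the array with no clone named, and 12203 and 9657 in parental cells (log2 difference -1.40, SE 0.22, limma adjusted p = 0.00454). Of the others, 1 was tested and did not pass (-0.83, limma adjusted p = 0.256). Without parental replicate 1, Clu (adjusted p = 0.111), C1qbp (0.134) and Masp1 (0.0802) all lost their calls by limma, so that 0 genes of the list rose and 0 fell.

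The membrane regulator Cr1l, the rodent Crry that acts on the same convertases as CD55, was bright and did not pass (log2 difference -0.20, SE 0.17, limma adjusted p = 0.49). Signals were 8423 and 10091 in clone II, 9510 in clone I, 9556.5 on the array with no clone named, and 11557 and 9968 in parental cells. Cd46, another cofactor for factor I, stayed at or below 540.2. Itgax, an integrin chain of the iC3b receptor CR4, read 46.5 and 42.3 in clone II, 14.4 in clone I, 156 on the array with no clone named, and 1121 and 626 in parental cells. It fell with no filter (log2 -4.19, SE 0.94, limma adjusted p = 0.0278), and lost that call without either parental array (0.257 and 0.134) or without clone II replicate 2 (0.0531).

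Of the terminal components only C8g exceeded 1000, at 3352 and 1524 in clone II, 2541 in clone I, 4708 on the array with no clone named, and 1901 and 1635 in parental cells, and it did not pass (log2 difference 0.67, limma adjusted p = 0.308). Colec12, a scavenger receptor of the collectin family (-0.31, limma adjusted p = 0.555), Masp2 (-0.03, 0.964) and Susd4 (-0.02, 0.982) did not pass either. The C1q chain genes C1qa, C1qb and C1qc, usually made by macrophages, stayed at or below 509.

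**Figure D3:**
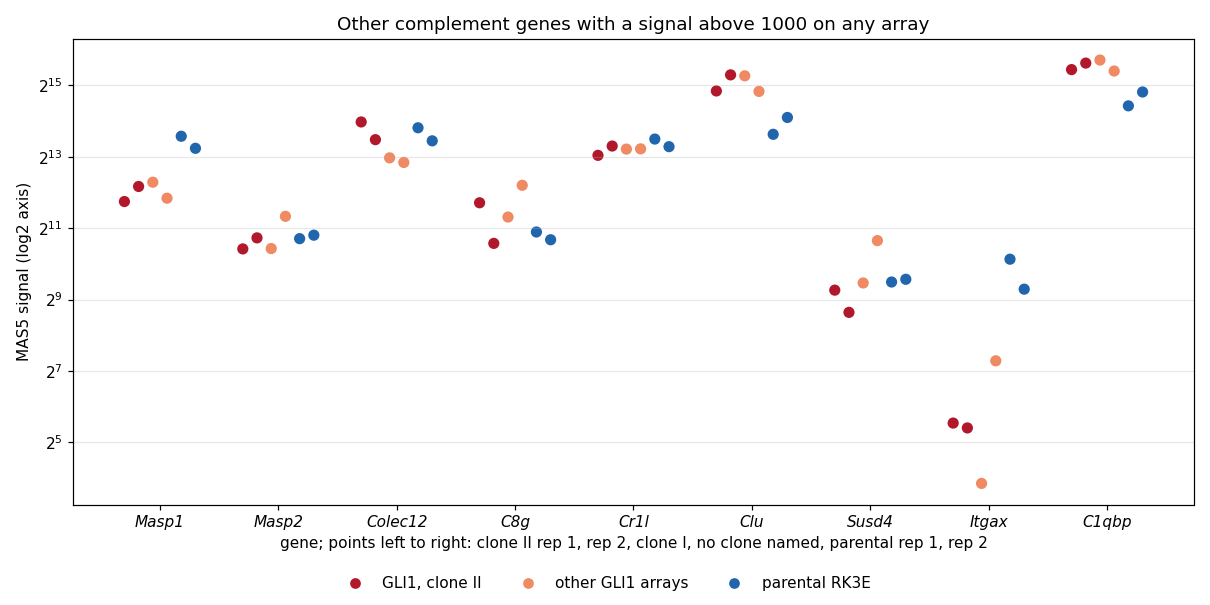
MAS5 signal (log2 axis) of the 9 further complement genes that reached 1000 on any array, each shown by its brightest probe set; within a gene the 6 points run from clone II through the other GLI1 arrays to parental RK3E. Clu and C1qbp are higher and Masp1 and Itgax lower on all 4 GLI1 arrays than on both parental arrays.

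Genes with the pattern most like that of C3 were sought among the tested single-symbol probe sets by the root mean square difference between mean-centred log2 signals over the 6 arrays. The closest 6 were Ccl2 (1.42), Cxcl1 (1.64), Steap4 (1.70), RT1-A (1.83), Dtx4 (1.94) and Gbp7 (1.97), beside a median of 3.12 over all those compared. Ccl2, a monocyte chemokine gene, read 3662 and 2619 in clone II, 914 in clone I, 105 on the array with no clone named, and 109 and 98.3 in parental cells. Cxcl1, a neutrophil chemokine gene, read 6061 and 6068 in clone II, 2594.5 in clone I, 279 on the array with no clone named, and 230 and 157 in parental cells. Unlike C3, both chemokine genes were also well above the parental signals in clone I.

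The remaining 4 differed from C3 in the same or another way. Gbp7, which encodes an interferon-induced GTPase, read 19759 and 16818 in clone II, 16602 in clone I, 738.5 on the array with no clone named, and 1239 and 1054 in parental cells. Dtx4, which encodes a ubiquitin ligase linked to Notch, read 3031 and 3538 in clone II, 313 and 354 on the other GLI1 arrays, and 628 and 804.5 in parental cells. Its other 2 probe sets were dimmer and less like C3 (2.58 and 2.85), and on 1 of them clone II overlapped the parental arrays. Steap4, a metalloreductase gene, read 1985 and 1192 in clone II and between 112.5 and 603 elsewhere. RT1-A, a class I histocompatibility gene, read 1381 and 1359 in clone II, 437 in clone I, 221 on the array with no clone named, and 96.3 and 184 in parental cells. Near-identical class I genes may share its probes. For all 6 genes both clone II arrays were above the 4 others, which the measure of likeness favours.

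**Figure D4:**
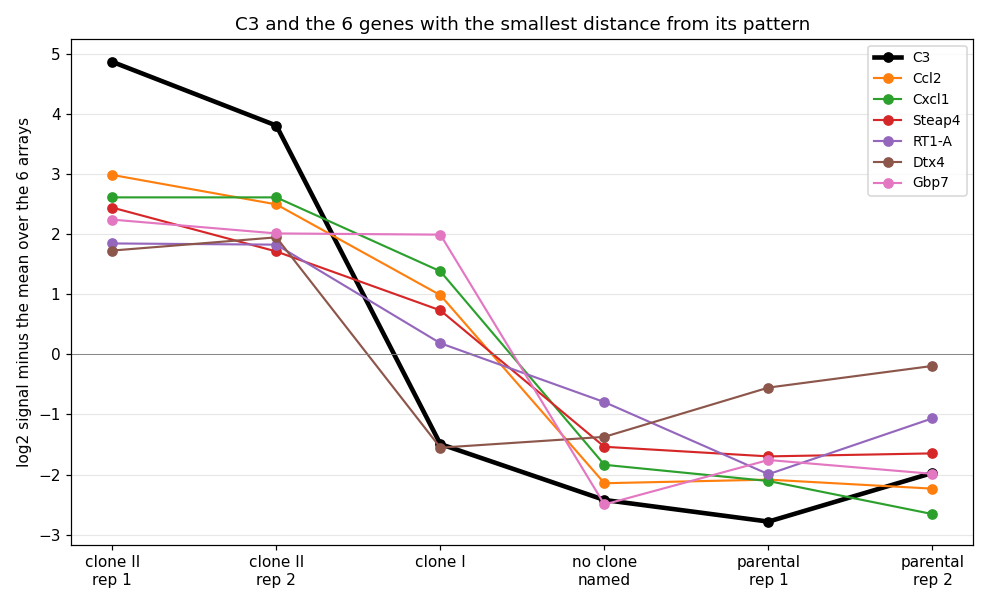
Log2 signal minus its mean over the 6 arrays for C3 (thick black) and the 6 genes at the smallest root mean square distance from it, by array; lines only join the arrays of 1 gene. C3 has the widest range, and Ccl2, Cxcl1, Steap4 and Gbp7 and, less so, RT1-A are also raised in clone I.

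Known inducers of complement genes were taken from a list of 26 cytokine, receptor and transcription factor genes, 25 of them on the array. Of 18 tested, 1 rose, 2 fell and 15 did not pass, with a median log2 difference of -0.02, where 13.1% of all tested probe sets were called. Nfkb2, an NF-kB subunit gene, rose by 0.92 (SE 0.24, limma adjusted p = 0.035). Il1r1, the interleukin-1 receptor gene (-1.11, SE 0.30, limma adjusted p = 0.0429), and Cebpa, a C/EBP factor gene (-1.08, SE 0.27, limma adjusted p = 0.0312), fell. Each of these 3 lost its call without either parental array, at limma adjusted p-values from 0.0889 to 0.317. With any 1 of the 6 arrays left out, Nfkb2 kept its call in 1 fit, Il1r1 in 2 and Cebpa in 2, and Il1r1 also missed the threshold with no filter (0.0636) and Cebpa and Il1r1 with median centring (0.0567 and 0.0983). Nfkbia (1.64, limma adjusted p = 0.054) and Relb (1.24, 0.0512), NF-kB feedback and subunit genes named after their values were seen, were just short of the threshold. The subunit genes Nfkb1 (-0.06, limma adjusted p = 0.929) and Rela (0.02, 0.938) of the same list were far from it. In the other GLI1 arrays 0 of the 18 rose and 3 fell (Il6st, Jak1 and Il1r1), where 5.57% and 6.83% of tested probe sets did. In GLI1 cells Il6st did not pass on its brightest probe set (-1.03, limma adjusted p = 0.0838). A dimmer Il6st set passed (-1.51, 0.0441), and its remaining sets did not (-1.20, 0.0548, and -0.52, 0.169).

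Of 15 acute phase genes on the array, 3 were tested, of which 1 rose (Itih3), 1 fell (A2m) and 1 did not pass (Cp), where 13.1% of all tested probe sets were called. Itih3, which encodes a heavy chain of the inter-alpha-trypsin inhibitor family, read 5021 and 4598.5 in clone II, 23874 in clone I, 81798 on the array with no clone named, and 12.4 and 27.1 in parental cells (log2 difference 9.63, SE 1.04, limma adjusted p = 0.000792). The parental signals are near background, so the size of this rise is uncertain, and with 32 added to each signal it was 8.16 (limma adjusted p = 0.00133). A2m, which encodes the protease trap alpha-2-macroglobulin, a relative of C3, read 53.2 and 13.4 in clone II, 1242 in clone I, 605 on the array with no clone named, and 8844.5 and 6171 in parental cells (log2 difference -5.60, SE 1.55, limma adjusted p = 0.0459). The A2m call was lost without either parental array (0.253 and 0.177) or without clone II replicate 1 (0.0763). With no filter, where Lbp fell (log2 -4.82, SE 0.89, limma adjusted p = 0.0118), A2m missed the threshold (0.0578). Lbp, which encodes the plasma protein that hands lipopolysaccharide to CD14, read 30.5 and 10.7 in clone II, 10.4 in clone I, 45.4 on the array with no clone named, and 612.5 and 514 in parental cells. It lost its call without either parental array (0.136 and 0.0993). The haptoglobin gene Hp stayed at or below 582 on every array.

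The labels were checked against markers. Gli1 signal was between 3356 and 9092 on the GLI1 arrays and 36.0 to 90.8 on the parental arrays. Among 7 kidney epithelial markers only Krt8 and Epcam exceeded 1000, and the kidney cadherin gene Cdh16 stayed at or below 52.9. The 7 summed to 1440 to 2006 in clone II, 7599 to 8620 in the other GLI1 arrays and 1917 to 2388 in parental cells. Krt8 (log2 2.07, limma adjusted p = 0.00359) and Epcam (2.15, 0.00584), the 2 tested, rose in the other GLI1 arrays against parental cells. There 5.57% of tested probe sets rose. In all GLI1 arrays together neither passed (0.49, limma adjusted p = 0.783, and 1.15, 0.281). Of 13 macrophage markers, 12 stayed below 1000 on every array, and the leukocyte gene Ptprc did not exceed 81.4. Their sums were 2472 to 3064 in clone II, 2663 to 3218 in the other GLI1 arrays and 4200 to 4602 in parental cells, and Cd14 fell (log2 -1.82, SE 0.45, limma adjusted p = 0.0301), a call lost when either parental array, the clone I array or replicate 2 of clone II was left out. All 9 hepatocyte markers stayed at or below 716, and the albumin gene Alb at or below 273. Of 7 fibroblast markers 4 were tested, and 3 collagen genes among them fell (Col1a1, Col1a2 and Col3a1), where 7.25% of all tested probe sets fell. Pdgfra did not pass (log2 -0.06, limma adjusted p = 0.95), and Pdgfrb, Dcn and Lum, below the filter, were not called with no filter. The list summed to 2390 to 3261 in clone II, 4904 to 6814 in the other GLI1 arrays and 152608 to 170310 in parental cells. Its markers other than the collagens stayed at or below 1476. The 4 endothelial markers stayed at or below 436. The part of the collagen and macrophage marker differences in the falls of Cd55 and Cd59b was not tested.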

How the data were processed

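Each probe set has 1 deposited signal intensity per array, which the authors computed with MAS5, per the submitters' processing notes. The MAS5 version and the genome build are not given in the sources used here. The 2% trimmed mean was 2501 on each array, so values were used as scaled, without detection calls. Signals below 1 were set to 1 before log2. Of 31099 probe sets 57 controls were left out, and those above the 40th percentile of mean log2 signal (8.33, a signal of 322) were tested, 18625 in all, with limma 3.58.1 in R 4.3.3 (lmFit, eBayes with intensity trend), two-sided. Adjusted p-values (Benjamini-Hochberg) span every probe set tested, with 0.05 as the threshold. GLI1 against parental arrays used 2 levels (4 residual degrees of freedom), and other GLI1 arrays against parental 3 levels (3 residual degrees of freedom). "Rose" and "fell" mean an adjusted p under 0.05.

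Members were all single-symbol probe sets of the listed genes. Other genes were named when called or above a signal of 1000 in the wider complement list, when called in the other lists, or as the 6 nearest to C3. Further genes of these lists, such as Tnf, Hp and Cdh16, were named outside this rule. For listed genes the probe set of highest mean was used. Symbols came from the platform annotation: 20826 probe sets had 1, 436 several and 9780 none. Members and lists were chosen with earlier results of these data known. No 2 arrays shared more than 16 identical values. The fits were also run on simulated data with normal noise independent between arrays. That setting holds no dependence between arrays of 1 picked line and no difference in RNA quality, so it cannot check the p-values for these. Alternatives were other filters, offset, scalings, no trend, a replicate block and left-out arrays.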

Additional observations from a re-analysis of the deposited data

How the results depend on the processing

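The number of arrays limits every result here. With no filter, 1 of 6 member probe sets rose and 2 fell (both of Cd55) in both comparisons, against 0 and 0 of the 2 tested with it. Over all 31042 probe sets with no filter, 3.1% rose and 4.15% fell in GLI1 cells, and 3% and 4.04% in the other GLI1 arrays. In the wider list 2 genes fell with no filter instead of 1. The added calls were of probe sets that lay below the filter (Serping1, both Cd55 sets and Itgax). Over all tested probe sets 1087 rose and 1351 fell, with 228 to 1377 and 282 to 1653 when 1 array was left out (599 and 900 without clone I, 228 and 282 without parental replicate 1, 276 and 421 without parental replicate 2), 705 rises with no intensity trend, and 145 and 167 without the 2 arrays of highest GAPDH ratio. Median centring gave 1454 and 944, so that 60.6% of calls were rises against 44.6%, and moved the median difference of all probe sets to 0.165. The wider list held 0 to 2 risen and 0 to 1 fallen genes with 1 array left out, and 0 and 0 without the 2 arrays of highest GAPDH ratio. For C1r and C1s, the members tested with the filter, the leave-one-out counts were all 0 and 0; members below it were left out of those counts. With 1 array left out the log2 difference of C1s in GLI1 cells lay between -0.17 and 0.46, that of C1r between -0.03 and 0.48, and that of C1r in the other GLI1 arrays between -0.64 and 0.35. C1s in GLI1 cells turned to -0.17 without clone II replicate 1 and -0.10 without parental replicate 2, and C1r to -0.03 without parental replicate 2. In the other GLI1 arrays C1r turned to 0.35 when the unnamed-clone array was dropped and 0.09 without parental replicate 1, alone or with clone II replicate 1. The cause was not tested.

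Replicate numbers are shared by arrays of clone II and parental cells, and deviations of same-numbered arrays correlated at 0.321 over probe sets, but the labels do not say that a number marks a shared culture or day. With the replicate number as a block 1190 probe sets rose and 1437 fell, 0 members rose and 0 fell, and with no filter Serping1 kept a log2 rise of 6.70 (limma adjusted p = 0.00253). Every fit that combines no filter with another choice (left-out arrays, 32 added, median centring, quantile normalization, no intensity trend or the block) was chosen after seeing the data.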

Other observations

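Cebpd, which encodes a C/EBP factor that drives acute phase genes, was chosen after its values were seen. It read 8375 and 7531 in clone II, 1819 in clone I, 335 on the array with no clone named, and 2380 and 1937 in parental cells. Cp, the ceruloplasmin gene, read 22831 and 21241 in clone II, 6025 in clone I, 654 on the array with no clone named, and 9077 and 5148 in parental cells on its brightest probe set. On these probe sets both genes were higher in clone II than on any other array and lowest on the array with no clone named. Their other probe sets did not all repeat this: a second Cp set read 9598 and 9153 in clone II against 11294 on parental replicate 1, and a second Cebpd set read 270 on clone II replicate 1 against 310 in clone I. Of the 25 inducer genes on the array, both clone II arrays lay above the 4 others for 2 (Nfkb1 and Cebpd) and below them for 4 (Il1b, Ifngr1, Jak2 and Socs3). Of the 15 acute phase genes they lay above for 3 (Lcn2, Fga and Cp) and below for 1 (A2m). Over all 31042 probe sets the share above was 6.44%, and the share below was not computed. Nothing is read from these counts, because the rule used this contrast. Tnf, which was not called, was named outside the rule for naming genes. The brighter probe set of Tnf read 3839 and 453 in clone II, 4218 in clone I, 62.3 on the array with no clone named, and 21.1 and 14.5 in parental cells, while the other stayed at or below 61.0. With no filter the brighter set gave a log2 difference of 5.55 between GLI1 and parental cells that did not pass (SE 1.5, limma adjusted p = 0.0565).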
